A study of Mus musculus with 18 samples.

Results

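The comparison between cells expressing KK-TAF3 and cells expressing WT-TAF3 after etoposide used 6 of the 18 arrays of the series, 3 for each genotype. All cells were C2C12, mouse myoblasts that fuse into myotubes in medium poor in serum. In every group the endogenous TAF3 had been depleted and replaced by murine TAF3. In both groups compared here the cells had then also been depleted of PIP4K2B with an shRNA and treated with etoposide at 10 µM for 7 hours. They differed in the rescue construct, which was the wild-type protein (WT-TAF3 sh-PIP4K2B) or KK-TAF3, a mutant whose PHD finger no longer binds phosphoinositides but keeps its binding to trimethylated histone H3 (KK-TAF3 sh-PIP4K2B). The 3 WT-TAF3 arrays without PIP4K2B depletion and with the same etoposide treatment entered the estimate of the spread and serve as a reference level. The remaining 9 arrays hold the same 3 genotypes after 2 days of differentiation in horse serum. The lines were made by viral transduction and the study calls the arrays of a genotype biological triplicates, but whether more than 1 transduced population stood behind a genotype is not given in the sources used here. The p-values therefore measure the spread between these arrays, part of which may be technical. A change caused by the mutation and any other difference between the transduced populations cannot be told apart.

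TAF3 is a subunit of TFIID, the general factor that recognises core promoters and helps to load RNA polymerase II. Its PHD finger is a small zinc-binding module that reads histone H3 trimethylated at lysine 4, a mark of active promoters. PIP4K2B phosphorylates phosphatidylinositol-5-phosphate (PI5P), so that its loss raises PI5P in the nucleus. Etoposide traps topoisomerase II on cut DNA and so produces double-strand breaks, and in other cells it has been linked to a rise of nuclear PI5P. The comparison asks which transcripts depend on the lipid-binding surface of TAF3 when PIP4K2B is low and DNA is damaged, outside the setting of differentiation. No array of the series holds untreated, undifferentiated cells. A difference that needs DNA damage therefore cannot be told apart from one present without it. Differences between the treatments cover the drug, the medium and differentiation together.

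Because TFIID binds the core promoter, the promoters of the genes that differed were searched for the letters TATAAA, the core of the TATA box, with the first base between 40 and 20 bases before an annotated start. Among the genes that rose, 30 of 40 had a promoter entry in RefSeq and 2 of the 30 (6.67%) held the letters on the gene's strand. Among the genes that fell it was 1 of 4 (25%), and among all genes tested 440 of 15562 (2.83%). The reverse complement TTTATA, which can overlap TATAAA, was in the same window of 0 of the 30, 0 of the 4 and 0.72% of all genes. A match is only a description of the letters. The 3 matches are shown because they include the member with the largest fall and a cytokine gene among the largest rises. Each is a stretch of 30 bases on the gene's strand (GRCm38.p6, all on the plus strand) with TATAAA in capitals, whose first base lay 29 bases before the start in each.
Sprr2b, chr3:92316664-92316693: ggcaggcaatccTATAAAaaagagtctcag
Sprr2f, chr3:92365146-92365175: gacagttagttaTATAAAgaggtccttggc
Il33, chr19:29945749-29945778, 1 of its 2 listed starts: tctgagctaccaTATAAAtagaactgaagc
Sprr2b and Sprr2f lie near each other on chromosome 3 and belong to the same family of small proline-rich genes. They moved in opposite directions, as given below, each with the lower genotype at a low signal.

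All values are log2 signals, so that a difference of 1 is a factor of 2, and a changed gene is one with a Benjamini-Hochberg adjusted p under 0.05 over all genes and a change above 1.4-fold in limma. Pip4k2b, the gene the shRNA targets, read 10.02, 10.10 and 9.69 on the 3 KK-TAF3 arrays and 9.92, 9.74 and 9.63 on the 3 WT-TAF3 arrays. The genotypes overlapped and differed by 0.17 (95% interval -0.09 to 0.44, limma adjusted p = 0.652). In differentiated cells Pip4k2b was higher on every KK-TAF3 array, by 0.31 (SE 0.05, adjusted p = 0.0206), which is under 1.4-fold, and its part in the comparisons there was not tested. On the etoposide arrays without depletion Pip4k2b read 10.75, 10.71 and 10.48, above every depleted array. Taf3 read 8.75, 8.70 and 8.63 in KK-TAF3 cells and 8.84, 8.86 and 8.77 in WT-TAF3 cells. The groups did not overlap and KK-TAF3 was the lower, but the difference of -0.13 (95% interval -0.30 to 0.05, adjusted p = 0.638) did not pass. In differentiated cells Taf3 was also lower on every KK-TAF3 array, with a difference of -0.17 (SE 0.06, adjusted p = 0.211). The part of the Taf3 level in the comparisons was not tested. The probes may read endogenous and introduced transcripts together, so these values do not check the mutation itself. The median signal of an array was 7.32 to 7.40 in KK-TAF3 cells and 7.32 to 7.46 in WT-TAF3 cells, and WT-TAF3 replicate 2 had the highest. Arrays of a group correlated with each other at 0.994 to 0.997.

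KK-TAF3 changed few transcripts after etoposide, and most of those that changed were higher. Of 19938 genes, 40 (0.201%) were higher in KK-TAF3 cells and 5 (0.0251%) were lower. Rises over 2-fold were seen for 5 genes, which were 2610524H06Rik, Pdgfd, Il33, Dcn and Mctp1, and a fall over 2-fold for Sprr2b alone. The rises had a median of 0.72 and reached 1.86. For all 45 genes every array of one genotype lay above every array of the other, against 6.89% of all genes with KK-TAF3 above WT-TAF3 throughout and 3.9% with KK-TAF3 below. The 45 were chosen on these same arrays, so that count only describes. Without adjustment of p, and with the fold limit kept, there were 85 rises (0.426%) and 19 falls (0.0953%). A fit that took the median signal of an array as a covariate gave 33 rises and 10 falls.

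The length of the list rested on single arrays. Without KK-TAF3 replicate 2 the count fell to 13, without WT-TAF3 replicate 3 to 18, without WT-TAF3 replicate 2 to 20 and without KK-TAF3 replicate 3 to 26. It was 40 without KK-TAF3 replicate 1 and 55 without WT-TAF3 replicate 1. The 13 genes that passed in each of these 6 fits were Sprr2b, 2610524H06Rik, Pdgfd, Il33, Dcn, Mctp1, Raet1d, Itga4, Irak3, Renbp, Sntb1, Sprr2f and Enpp5. When all 35556 transcript clusters were tested together, 6 clusters passed, and 5 of them were the clusters of Sprr2b, Pdgfd, Il33, Dcn and Sntb1. A large rise did not by itself go with a stable call, since Nptx1 and Ptprf, the next largest rises after Raet1d, were not among the 13.

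**Figure D1:**
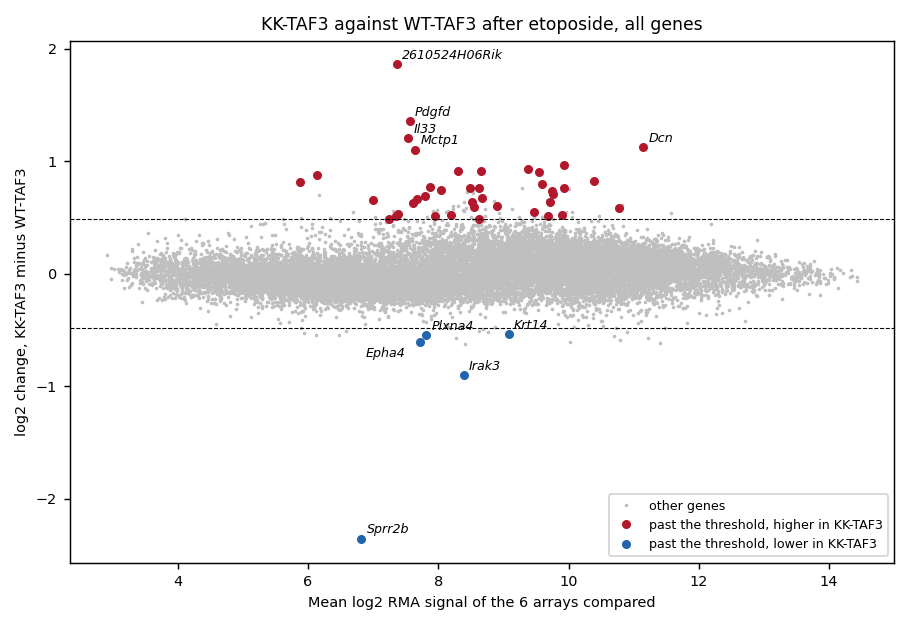
Change of every gene (KK-TAF3 minus WT-TAF3 after etoposide, log2) against the mean log2 signal of the 6 arrays compared. Red and blue points are the 40 genes that were higher and the 5 that were lower past the threshold, grey points are the other genes, and dashed lines mark 1.4-fold. The cloud of grey points sits slightly above 0 at signals between 8 and 11 and slightly below it between 6 and 8.

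Of the 5 rises over 2-fold, 3 were in genes for released or matrix proteins, which are placed together here after their values were seen. Pdgfd, which encodes a ligand of the PDGF beta receptor, read 7.99, 8.37 and 8.35 in KK-TAF3 cells against 6.84, 6.79 and 7.02 in WT-TAF3 cells. All KK-TAF3 arrays lay almost 1 log2 unit or more above the highest WT-TAF3 array, a rise of 1.35 (SE 0.12, adjusted p = 0.000189), or 2.56-fold. Of the 20 ligands of the PDGF, VEGF and HGF families measured, Pdgfd was the only one past the threshold, where 0.226% of all genes passed. Il33 encodes a nuclear alarmin of the interleukin-1 family that is released from damaged cells. It read 8.0, 8.19 and 8.24 against 7.16, 6.93 and 6.73, so that the groups stood well apart with a rise of 1.20 (SE 0.11, adjusted p = 0.000369). It was likewise the only one of 37 NF-kB and secreted inflammatory genes to pass, in a list whose median was -0.06. Dcn encodes decorin, a small leucine-rich proteoglycan that binds collagen fibrils and growth factors. It read 11.62, 11.73 and 11.78 against 10.71, 10.45 and 10.60 and rose by 1.12 (SE 0.09, adjusted p = 0.000146), or 2.18-fold. The other 29 proteoglycan genes measured did not pass in either direction. With so low a share passing over all genes, these list counts do not show selectivity within a family. Prelp, a relative of decorin, read 7.84, 7.79 and 7.65 against 8.11, 8.11 and 7.78, a difference of -0.24 (adjusted p = 0.606) with overlapping arrays.

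Pcolce2, which enhances the processing of procollagen, rose by 0.58 (SE 0.10, adjusted p = 0.0339). Chst15, a sulfotransferase of chondroitin sulfate chains, rose by 0.69 (SE 0.10, adjusted p = 0.0101). Collagens themselves did not follow. None of 47 genes for collagens and other fibrillar matrix proteins passed, near the 0.226% of all genes. Of these 47 genes 25.5% lay above 0 against 47.4% of all genes, and their median was -0.14. The lowest of them was Col1a1, the main chain of type I collagen, with -0.49 (SE 0.21, adjusted p = 0.606). Pcolce2 passed in 1 and Chst15 in 3 of the 6 fits with an array left out.

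Several further rises were in genes for surface proteins, which are placed together here after their values were seen. Itga4 encodes the alpha 4 integrin, which binds fibronectin and VCAM1. It read 8.83, 8.82 and 8.65 in KK-TAF3 cells and 8.04, 7.69 and 7.84 in WT-TAF3 cells, a rise of 0.91 (SE 0.11, adjusted p = 0.00340). It was the only one of 38 listed adhesion genes past the threshold, where 0.226% of all genes passed, and the list's median was -0.04. At an unadjusted p with the same fold limit there were 3, all rises, where 0.426% of all genes rose. Raet1d, a ligand of the NKG2D receptor of natural killer cells that is known to be induced by DNA damage, read 10.30, 10.34 and 10.59 against 9.36, 9.27 and 9.70. The groups did not overlap and the rise was 0.97 (SE 0.12, adjusted p = 0.00340). Raet1 genes are near-identical copies, so the probes may read several of them. Gfra1, the GDNF co-receptor, read 10.13, 10.08 and 9.76 against 9.31, 9.20 and 9.08, a rise of 0.79 (SE 0.11, adjusted p = 0.00749). It was the only one of 21 listed receptors past the threshold, where 0.226% of all genes passed, and the list's median was -0.08.

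Genes for further surface proteins, for a secreted protein and for a neurofilament rose by less or with a wider spread. Ptprf, a receptor tyrosine phosphatase, read 9.22, 9.38 and 8.72 against 8.10, 8.30 and 8.18. KK-TAF3 replicate 3 stood below the other KK-TAF3 arrays, and the rise of 0.92 (SE 0.14, adjusted p = 0.0167) passed in 1 of the 6 fits with an array left out. F11r, the junctional adhesion molecule JAM-A, rose by 0.71 (SE 0.11, adjusted p = 0.0117) and Amigo2, a leucine-rich adhesion protein, by 0.49 (SE 0.08, adjusted p = 0.0339). Nptx1, a secreted neuronal pentraxin, rose by 0.93 (SE 0.13, adjusted p = 0.00749), the sodium channel gene Scn7a by 0.76 (SE 0.12, adjusted p = 0.0243) and the neurofilament gene Nefl by 0.67 (SE 0.09, adjusted p = 0.00749). Nefl was the only one of 12 neural marker genes past the threshold, where 0.226% of all genes passed. The others had changes of either sign, so that the median of the list was -0.09. The calls of Gfra1, F11r, Amigo2, Nptx1, Scn7a and Nefl were lost without KK-TAF3 replicate 2, and also without WT-TAF3 replicate 3.

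Among genes acting inside the cell, Mctp1, which encodes a membrane protein with calcium-binding C2 domains, read 8.06, 8.16 and 8.37 in KK-TAF3 cells and 7.34, 6.97 and 6.98 in WT-TAF3 cells. The rise was 1.10 (SE 0.12, adjusted p = 0.00176), or 2.14-fold. Sntb1 encodes a syntrophin of the dystrophin complex that anchors signalling proteins at the muscle membrane. It read 10.88, 10.86 and 10.69 against 10.02, 9.94 and 10.00, a rise of 0.83 (SE 0.09, adjusted p = 0.00150) with little spread in WT-TAF3 cells. Renbp, an epimerase of amino sugar metabolism, read 9.90, 10.06 and 10.04 against 9.35, 8.93 and 9.02 and rose by 0.90 (SE 0.11, adjusted p = 0.00340). Rgs2, which shortens signalling through Gq-coupled receptors, rose by 0.88 (SE 0.12, adjusted p = 0.00749), a call lost without KK-TAF3 replicate 2.

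The smaller rises included 4 enzymes that act on lipids, put together here after their values were seen. Phyh, which starts the peroxisomal oxidation of phytanic acid, rose by 0.76 (SE 0.12, adjusted p = 0.0152). Hsd17b11, a dehydrogenase found on lipid droplets, rose by 0.73 (SE 0.10, adjusted p = 0.00511), and Ch25h, which makes 25-hydroxycholesterol, by 0.63 (SE 0.09, adjusted p = 0.00749). Abhd6, a monoacylglycerol lipase, rose by 0.51 (SE 0.09, adjusted p = 0.0497), which is at the limit, and its call was lost in each of the 6 fits with an array left out. The calls of Phyh, Hsd17b11 and Ch25h were lost without KK-TAF3 replicate 2, and that of Phyh without WT-TAF3 replicates 2 or 3 too.

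The largest rise of all was that of 2610524H06Rik, a mouse transcript with no assigned function. It read 7.86, 8.24 and 8.77 in KK-TAF3 cells and 6.29, 6.30 and 6.70 in WT-TAF3 cells, a rise of 1.86 (SE 0.19, adjusted p = 0.000916), or 3.63-fold. Its KK-TAF3 arrays spread over almost 1 log2 unit and still lay more than 1 log2 unit above the highest WT-TAF3 array. Sprr2f, of the small proline-rich family, read 6.28, 6.43 and 6.15 against 5.46, 5.49 and 5.47 and rose by 0.82 (SE 0.10, adjusted p = 0.00340). Its WT-TAF3 arrays were nearly identical, at a low signal that cannot be separated from background. Enpp5, a membrane phosphodiesterase, rose by 0.76 (SE 0.10, adjusted p = 0.00395), from 8.05, 8.10 and 8.17 to 8.77, 8.87 and 8.96. The imprinted genes Mest and Zim1 rose by 0.55 (adjusted p = 0.0427) and 0.51 (adjusted p = 0.0393), each in a call that was kept in 1 of the 6 fits without an array. Smaller rises were also seen for Qpct, Serpinb6b, Csn3, Zfp760, Gm10825, Nsg1, Sdr39u1, Dact1, Rragd and Nrep, between 0.49 and 0.77, of which only Nsg1 was kept in more than 3 of those fits.

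Taf9b, which encodes a close relative of the TFIID subunit TAF9, read 10.08, 10.19 and 10.20 in KK-TAF3 cells and 9.74, 9.51 and 9.66 in WT-TAF3 cells. The arrays did not overlap and the rise was 0.52 (SE 0.09, adjusted p = 0.0328). Pmaip1 encodes NOXA, a BH3-only protein that neutralises MCL1 and is a p53 target. It read 8.09, 8.33 and 8.22 against 7.73, 7.65 and 7.73 and rose by 0.51 (SE 0.09, adjusted p = 0.0427). Rnf144b, an E3 ubiquitin ligase that is also described as a p53 target, rose by 0.59 (SE 0.08, adjusted p = 0.00749). Taf9b and Pmaip1 passed in 1 and Rnf144b in 4 of the 6 fits with an array left out. Taf9b and Pmaip1 also lost the call when the arrays were centred on their medians and when the 6 arrays compared were fitted alone, and Rnf144b kept it in both.

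The 5 genes that fell were led by Sprr2b, a structural gene of the cornified envelope of skin. It read 5.79, 5.77 and 5.35 in KK-TAF3 cells and 8.11, 7.88 and 7.98 in WT-TAF3 cells, and fell by 2.36 (SE 0.13, adjusted p = 3.34e-06). Its signal in KK-TAF3 cells was low and cannot be separated from background, so no fold is given. The lowest WT-TAF3 array thus stood over 2 log2 units above the highest KK-TAF3 array. Irak3 encodes IRAK-M, an inhibitor of Toll-like and interleukin-1 receptor signalling. It read 8.06, 8.02 and 7.72 against 8.96, 8.70 and 8.87 and fell by 0.90 (SE 0.11, adjusted p = 0.00340). Epha4, an ephrin receptor, read 7.50, 7.53 and 7.20 against 8.14, 7.98 and 7.95 and fell by 0.61 (SE 0.10, adjusted p = 0.0328). Plxna4, a receptor of class 3 semaphorins, read 7.59, 7.53 and 7.50 against 8.18, 8.18 and 7.91 and fell by 0.55 (SE 0.10, adjusted p = 0.0460). Krt14, a keratin of basal epidermal cells, read 8.79, 8.95 and 8.70 against 9.43, 9.33 and 9.29 and fell by 0.54 (SE 0.09, adjusted p = 0.0378). The groups did not overlap for any of the 5. Epha4 and Plxna4 each kept the call in 1 of the 6 fits with an array left out and Krt14 in 0, and all 3 lost it when the arrays were centred on their medians.

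**Figure D2:**
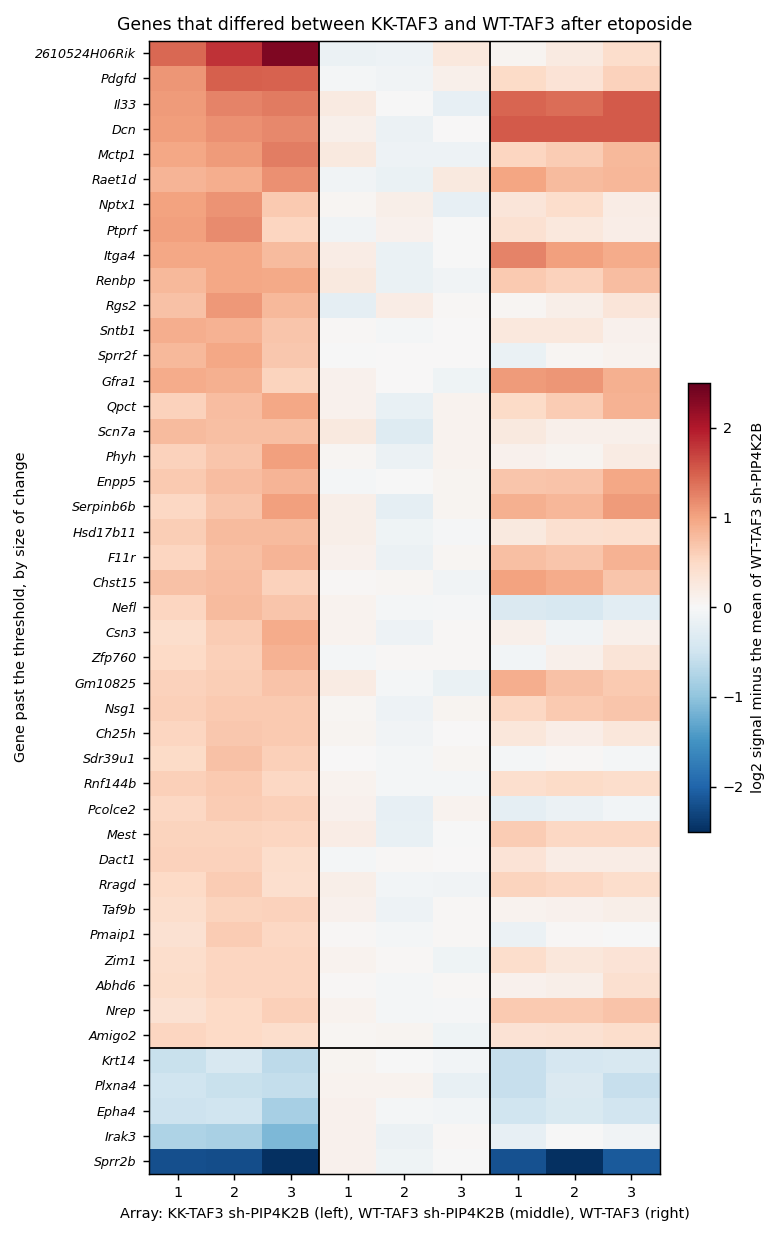
Signal of the 45 changed genes on the 9 etoposide arrays, shown as the log2 difference from the mean of the 3 WT-TAF3 sh-PIP4K2B arrays (red higher, blue lower). Rows are ordered by the change and a line separates the 40 rises from the 5 falls. The right columns are WT-TAF3 cells without PIP4K2B depletion, in which Il33 and Dcn were high and Sprr2b was low, as in KK-TAF3 cells. For 24 of the 40 rises every KK-TAF3 array lay above these arrays, against 8.22% of all genes. The rises were chosen on the same KK-TAF3 arrays, so this only describes.

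Some falls did not reach the threshold. Efhd1, a mitochondrial calcium-binding protein, read 10.98, 11.02 and 10.80 against 11.68, 11.38 and 11.45, a difference of -0.57 (adjusted p = 0.0509). Krt19, a second keratin, differed by -0.51 (adjusted p = 0.0595), Cpa1 by -0.49 (adjusted p = 0.0705) and Mgarp by -0.54 (adjusted p = 0.0712). Farther from the threshold, Mtss2 differed by -0.62 (adjusted p = 0.209) and Gpr153 by -0.58 (adjusted p = 0.367). The metalloproteases Adamts1 and Adamts5 differed by -0.61 (adjusted p = 0.188) and -0.55 (adjusted p = 0.397). These 8 falls were named only from genes whose arrays did not overlap, so their lack of overlap is not a result. Over all genes 3.9% had every KK-TAF3 array below every WT-TAF3 array. On the other side Lrrc17 lay just outside with 0.54 (adjusted p = 0.0502), and 14 genes in all had an adjusted p between 0.05 and 0.1 with a change above 1.4-fold. Abhd6 and Plxna4, with adjusted p values of 0.0497 and 0.0460, were just inside. Epha5, another ephrin receptor, read 5.29, 5.46 and 5.44 against 5.29, 5.79 and 5.63 with overlapping arrays, a difference of -0.17 (adjusted p = 0.640).

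The levels on the WT-TAF3 arrays without PIP4K2B depletion place these changes. The effect of depletion below is the difference between WT-TAF3 sh-PIP4K2B and WT-TAF3 cells, and it shares the WT-TAF3 sh-PIP4K2B arrays with the comparison of genotypes, so that high or low values on those arrays would move both. Of the 40 rises, every KK-TAF3 array lay above every undepleted array for 24, the groups overlapped for 13, and KK-TAF3 lay below for 3, which were Il33, Dcn and Nrep. Over all genes KK-TAF3 lay above throughout for 8.22% and below for 6.01%. The rises were chosen on the same KK-TAF3 arrays, so these counts only describe. Dcn read 12.12 on each of the 3 undepleted arrays, fell by 1.53 with depletion (SE 0.09, adjusted p = 3.17e-06) and stood at 11.71 ± 0.08 (SD, n = 3) in KK-TAF3 cells. Il33 read 8.39, 8.34 and 8.47 without depletion, fell by 1.46 with it (SE 0.11, adjusted p = 4.83e-05) and stood at 8.14 ± 0.13 (SD, n = 3) in KK-TAF3 cells. In both genes the KK-TAF3 arrays lay below all undepleted arrays and above all depleted WT-TAF3 arrays.

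Itga4 read 9.10, 8.89 and 8.78 without depletion, which overlapped the KK-TAF3 arrays, and fell by 1.07 (SE 0.11, adjusted p = 0.000844) with depletion in WT-TAF3 cells. Gfra1 read 10.26, 10.29 and 10.09 and likewise overlapped. Sprr2b read 5.82, 5.50 and 5.90 without depletion, so that KK-TAF3 and undepleted arrays overlapped and depleted WT-TAF3 cells alone stood high, at 7.99 ± 0.11 (SD, n = 3). Pdgfd read 7.36, 7.22 and 7.46 without depletion, and every KK-TAF3 array lay above these. Sntb1 read 10.26, 10.25 and 10.09 and Pmaip1 7.55, 7.73 and 7.69, again all below the KK-TAF3 arrays, and depletion moved Sntb1 by -0.22 (adjusted p = 0.435) and Pmaip1 by 0.04 (adjusted p = 0.860) in WT-TAF3 cells. Irak3 read 8.64, 8.83 and 8.76 and overlapped depleted WT-TAF3 cells instead, and KK-TAF3 cells alone were low.

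**Figure D3:**
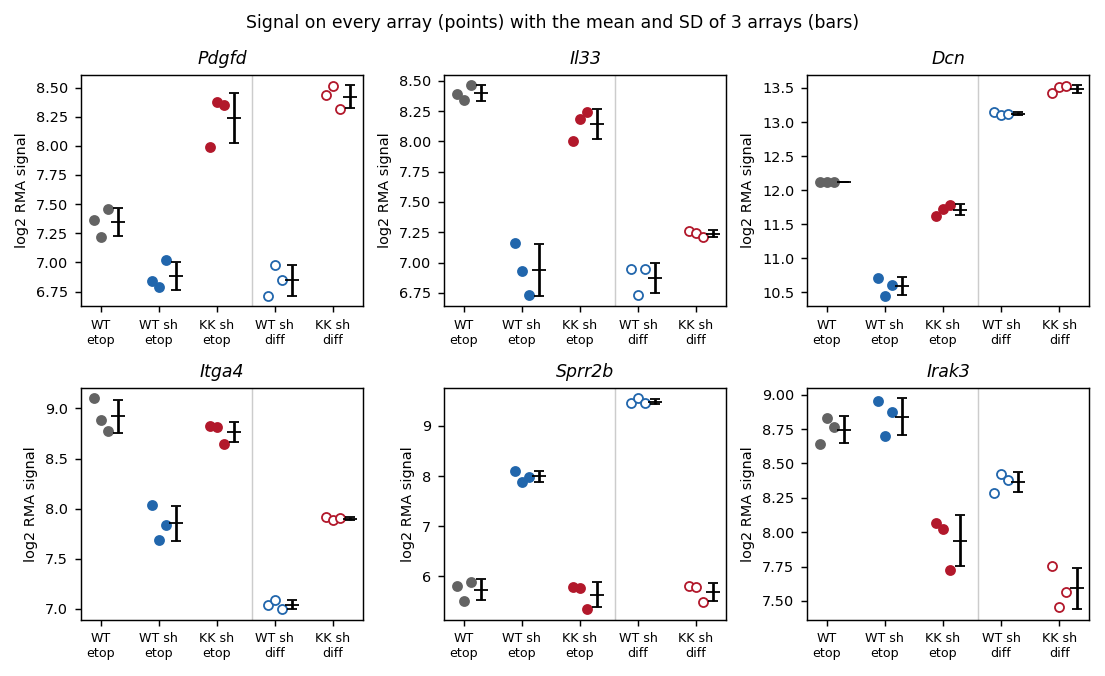
Log2 signal of 6 genes on every array (points) with the mean and SD of 3 arrays (bars), for WT-TAF3 cells without depletion after etoposide (grey), WT-TAF3 sh-PIP4K2B (blue) and KK-TAF3 sh-PIP4K2B (red), after etoposide (filled) and after 2 days of differentiation (open). Axes do not start at 0. Pdgfd was above both WT-TAF3 groups in KK-TAF3 cells, whereas Il33, Dcn and Sprr2b stood nearer to undepleted cells.

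The same genotypes were compared in differentiated cells on separate arrays, although of the same transduced lines. There KK-TAF3 cells had 63 rises (0.316%) and 45 falls (0.226%). Of the 40 genes that rose after etoposide 15 were also higher in differentiated cells, and of the 5 that fell 2 were also lower, namely Sprr2b and Irak3. These 17 genes made up 37.8% of the etoposide list and 15.7% of the differentiated list. The 15 were 2610524H06Rik, Pdgfd, Mctp1, Ptprf, Itga4, Renbp, Rgs2, Sntb1, Gfra1, Enpp5, Chst15, Pcolce2, Zim1, Abhd6 and Amigo2. Among the rises 39 of 40 had a change above 0 in differentiated cells, where 57.9% of all genes did, and the median of the 40 there was 0.38. The differentiated arrays stood apart in the same direction for 33 of the 40 rises and 4 of the 5 falls, against 12.9% and 8.07% of all genes.

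Pdgfd read 8.43, 8.51 and 8.32 in differentiated KK-TAF3 cells against 6.71, 6.98 and 6.85, a rise of 1.58 (SE 0.08, adjusted p = 1.78e-05). Mctp1 rose by 1.42 (SE 0.07, adjusted p = 2.63e-05), Renbp by 1.0 (SE 0.05, adjusted p = 1.78e-05) and Itga4 by 0.86 (SE 0.05, adjusted p = 2.69e-05). These 4 genes therefore stood higher in KK-TAF3 cells under both treatments, and the differences between the treatments were -0.22 (95% interval -0.52 to 0.08) for Pdgfd, -0.32 (-0.64 to -0.01) for Mctp1, -0.10 (-0.36 to 0.17) for Renbp and 0.05 (-0.22 to 0.32) for Itga4. None of these 4 differences passed (adjusted p from 0.762 to 0.939). Sprr2b read 5.81, 5.79 and 5.49 in differentiated KK-TAF3 cells against 9.45, 9.55 and 9.46 and fell by 3.79 (SE 0.12, adjusted p = 1.83e-06).

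The effect of KK-TAF3 differed between the treatments for 30 genes (0.15%), 27 with a larger value after etoposide (0.135%) and 3 with a smaller one (0.015%). Without adjustment of p it was 105 (0.527%) and 38 (0.191%). Among them were 6 of the 45 members. Dcn rose by 1.12 after etoposide and by 0.37 in differentiated cells, where it read 13.42, 13.51 and 13.53 against 13.14, 13.10 and 13.12, a difference between treatments of 0.76 (SE 0.10, adjusted p = 0.00108). Il33 rose by 0.36 in differentiated cells, a difference of 0.84 (SE 0.14, adjusted p = 0.0122). Nptx1 and F11r changed by 0.07 and 0.05 in differentiated cells, and the differences were 0.86 (SE 0.16, adjusted p = 0.0315) and 0.66 (SE 0.12, adjusted p = 0.0247). Nefl had opposite signs. It read 7.58, 7.61 and 7.48 in differentiated KK-TAF3 cells against 7.82, 8.27 and 7.95, a change of -0.46 that did not pass (adjusted p = 0.0753), and the difference was 1.13 (SE 0.14, adjusted p = 0.000899). Sprr2b fell in both treatments but by 1.43 less after etoposide (SE 0.19, adjusted p = 0.00109). Its KK-TAF3 level was 5.64 ± 0.25 after etoposide and 5.70 ± 0.18 in differentiated cells (SD, n = 3), and it was the WT-TAF3 level that differed, at 7.99 and 9.48.

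Of the other 24 genes with a different effect, the largest differences were in muscle genes that had fallen in differentiated KK-TAF3 cells. Mymk, the membrane protein that drives myoblast fusion, read 8.02, 7.65 and 7.70 against 7.65, 8.08 and 7.84 after etoposide with overlapping arrays. In differentiated cells it read 8.14, 8.10 and 8.06 against 9.62, 9.63 and 9.75, and the difference between treatments was 1.50 (SE 0.15, adjusted p = 8.64e-05). Casq2, the calcium store protein calsequestrin, gave 1.37 (SE 0.12, adjusted p = 1.74e-05) and the troponin gene Tnnc1 gave 1.14 (SE 0.15, adjusted p = 0.00108). WT-TAF3 sh-PIP4K2B cells after etoposide averaged 7.86 for Mymk, 6.59 for Casq2 and 8.33 for Tnnc1. Differentiated KK-TAF3 cells averaged 8.10, 6.52 and 8.68, and differentiated WT-TAF3 sh-PIP4K2B cells 9.67, 7.74 and 9.80. For these genes it was thus mainly the WT-TAF3 level that differed between treatments. Myog, the transcription factor myogenin, read 6.72, 6.88 and 6.71 against 6.76, 7.13 and 6.91 after etoposide, a change of -0.16 (adjusted p = 0.632), and fell by 1.02 in differentiated cells (adjusted p = 0.000247). Smaller values after etoposide were found for Setbp1, Ptgfr and Ccn5, with differences of -0.88 (adjusted p = 0.0296), -0.74 (adjusted p = 0.0152) and -0.55 (adjusted p = 0.0462), and all 3 were higher in KK-TAF3 cells after differentiation, the last by less than 1.4-fold.

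**Figure D4:**
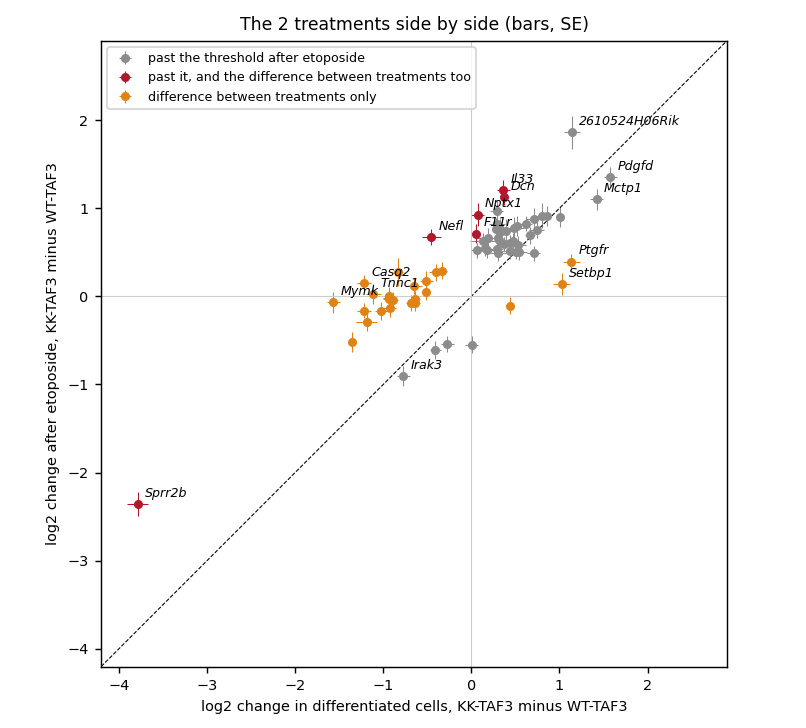
Change in KK-TAF3 against WT-TAF3 cells after etoposide (vertical, log2) against the change in differentiated cells (horizontal, log2) for the 45 members and the genes whose effect differed between treatments, with standard errors as bars and the line of equal change dashed. Grey points passed after etoposide, red points passed there and in the difference between treatments, and orange points passed only in the difference. Muscle genes such as Mymk and Casq2 sit at the left near 0 on the vertical axis, and Sprr2b lies at the lower left.

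Lists that cover the response to etoposide held 1 call, Pmaip1, where 0.226% of all genes passed. Of 36 p53 targets 1 passed, and Mdm2 and Ccng1, both classical targets, differed by -0.04 each (adjusted p = 0.884 and 0.866). None of 40 genes of the DNA damage checkpoint and of break repair passed, nor did any of 42 DNA replication genes or of 39 genes for G2 and mitosis. Small differences of these lists ran mostly upwards. In break repair 92.5% of the genes lay above 0 with a median of 0.08, in DNA replication 90.5% with 0.12 and in G2 and mitosis 87.2% with 0.14, while 47.4% of all genes lay above 0 with a median of -0.01. With the array median as covariate the share was 77.5% with a median of 0.05 in break repair, 85.7% with 0.11 in DNA replication and 79.5% with 0.11 in G2 and mitosis. The largest was Prim1, a primase subunit, with 0.45 (SE 0.16, adjusted p = 0.589), followed by the checkpoint kinase gene Chek2 with 0.42 (SE 0.12, adjusted p = 0.365). Most of these genes have signals between 8 and 11, where genes in general ran upwards. Of the 2648 genes with a signal of 9 to 10, 69.8% lay above 0 with a median of 0.09, and of the 6542 genes between 6 and 8 it was 26.4% with a median of -0.07. The part of this dependence on signal in the lists was not tested.

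Among 31 TFIID and core promoter genes Taf9b passed, where 0.226% of all genes did. Of the list 87.1% lay above 0 with a median of 0.14, against 47.4% and -0.01 over all genes. With the array median as covariate it was 83.9% with 0.12. Of the 31 genes 23 had signals between 8 and 11, where 57.3% to 69.8% of all genes lay above 0 by band of signal. The part of this dependence on signal in the list was not tested. Tbp, the TATA-binding subunit, differed by 0.16 (SE 0.13, adjusted p = 0.672) and Taf1, the largest subunit, by 0.17 (SE 0.13, adjusted p = 0.670). Taf3 itself had the lowest value of the list. Of 45 PHD finger genes and 60 genes for phosphoinositide kinases, phosphatases and phospholipases 0 passed, which is near the 0.226% of all genes. The medians of the lists were -0.01 and -0.00087.

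Of 51 sarcomere genes 0 passed after etoposide, near the 0.226% of all genes, while 23.5% lay above 0 and the median was -0.05. In differentiated KK-TAF3 cells 10 of the 51 were lower past the threshold, against 0.226% of all genes. Acta1, skeletal muscle actin, differed by -0.45 (SE 0.11, adjusted p = 0.212) with 9.55, 9.45 and 9.82 against 9.98, 10.16 and 10.02. Myod1, the master regulator of the lineage, read 8.01, 7.81 and 7.99 against 7.74, 7.74 and 7.69, a difference of 0.21 (adjusted p = 0.606), with every KK-TAF3 array above every WT-TAF3 array. Ckm, muscle creatine kinase, differed by -0.02 (adjusted p = 0.948). Trdn, Dkk3 and Ces2g, which the study also names, differed by -0.11, -0.15 and 0.03 with overlapping arrays (adjusted p = 0.769, 0.688 and 0.928). Trdn had 19 transcript clusters, and the value is that of the brightest alone. Igfbp4, which binds insulin-like growth factors, differed by -0.45 (adjusted p = 0.101) and C1qtnf3 by -0.52 (adjusted p = 0.147), both without overlap. The 24 small proline-rich and epidermal genes held 1 rise (Sprr2f) and 2 falls (Sprr2b and Krt14) with a median of -0.09, and probes of this family may read more than 1 member. Of the 41 lists examined 28 had no member past the threshold, and list medians ran from -0.14 to 0.14.

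**Figure D5:**
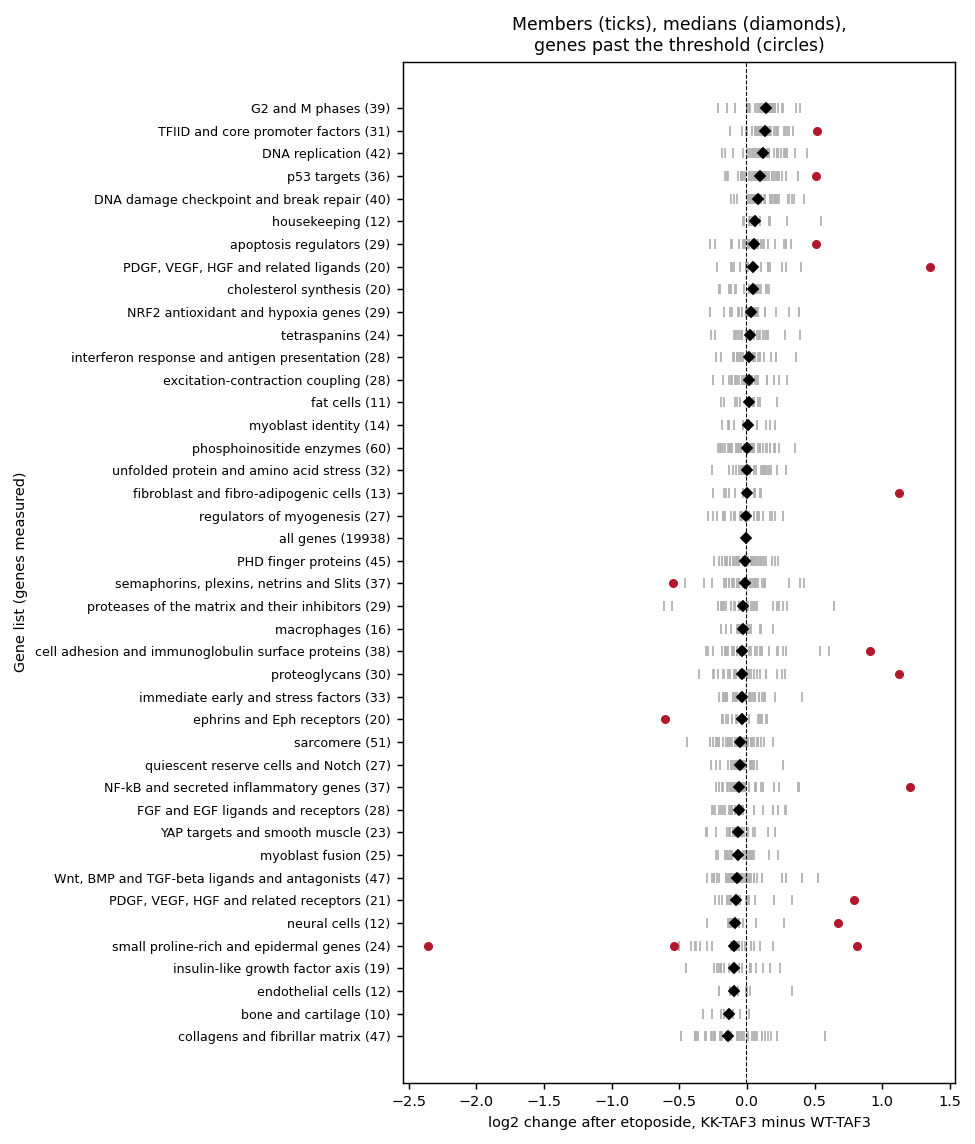
Change after etoposide (KK-TAF3 minus WT-TAF3, log2) of the members of each gene list (ticks), with the list's median (diamond) and the members past the threshold (red circles). The number of genes measured stands beside each name and the dashed line is the median of all genes. Single members such as Sprr2b, Pdgfd, Il33 and Dcn stand far from lists whose medians lie near 0.

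Among the marker lists of other cell types Dcn and Nefl alone passed. None of 16 macrophage, 12 endothelial, 11 fat and 10 bone or cartilage markers passed, near the 0.226% of all genes. The arrays carry no detection calls by which a marker could be called absent. The summed linear signal of the 14 myoblast markers was 63559 to 68675 on KK-TAF3 arrays and 65152 to 69725 on WT-TAF3 arrays. For the 16 macrophage markers it was 2046 to 2089 and 1971 to 2078. For the 13 fibroblast and fibro-adipogenic markers, which include Dcn, it was 11417 to 12284 and 10059 to 10584, and without Dcn 7891 to 8894 and 8664 to 8903, so that the rise of Dcn was not shared by the sum of the other 12.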

How the data were processed

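Total RNA of 6 groups was hybridised to 18 Affymetrix arrays, 3 a group. The deposited values are log2 signals that the authors computed by RMA (Expression Console, version not given in the sources used here), which removes background, equalises the distributions of the arrays and combines probes into transcript clusters. Such equalising would hide a shift of the whole transcriptome. Of 35556 clusters, 21789 had 1 gene symbol, 1621 had several and 12146 were not listed in the annotation used, whose platform is an earlier one than the chip that the study's supplement names. Where a gene had more than 1 cluster (999 genes) the brightest stood for it, which gave 19938 genes, of which 19856 matched RefSeq by gene ID. All 45 changed genes had 1 cluster.

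Differences were tested with limma 3.58.1 in R 4.3.3 on the 9 etoposide arrays (3 group means, 6 residual and 7.06 prior degrees of freedom), since earlier values of these data had shown a larger spread there (median SD within a group 0.0952 to 0.137) than among differentiated arrays (0.0694 to 0.0730). Differentiated cells were fitted on their own 9 arrays and the difference between treatments on all 18. A gene passed at a Benjamini-Hochberg adjusted p under 0.05 and a change above 1.4-fold. With 3 arrays a group, the number of arrays limits the precision. Lists were described by counts and medians. The members and lists were chosen with earlier results of these data known.

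Genes were named by a rule: genes the study names, and the 15 largest rises and falls past the threshold with their groups apart. It also covered the leading members of lists and the largest differences between treatments. Falls short of the threshold were named if fewer than 10 passed, and only with their groups apart. Not every gene the study names is given above. Members beyond the 15 largest rises, Lrrc17 and the genes named as examples of lists were added after their values were seen. Promoter sequences came from RefSeq on GRCm38.p6. The alternatives tried were p without adjustment, no fold limit, fits on 18 or 6 arrays, a variance per group, a trended robust prior, a signal filter, every cluster, the mean of a gene's clusters, centring, quantile normalization, the array median as covariate, the replicate number as a block, and each array left out in turn. A block for the depletion values was added after the data were seen. Figures were drawn with Python 3.11.15, pandas 2.3.3 and matplotlib 3.10.9.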

Additional observations from a re-analysis of the deposited data

Results flagged for a closer look

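The effect of KK-TAF3 differed between etoposide and differentiation for 30 genes by limma's test of the difference on all 18 arrays. Among the changed genes the difference of the log2 change, etoposide minus differentiated, was 0.84 for Il33, 0.76 for Dcn, 0.86 for Nptx1, 0.66 for F11r, 1.13 for Nefl and 1.43 for Sprr2b. Muscle and related genes that were lower in differentiated KK-TAF3 cells gave 1.50 for Mymk, 1.37 for Casq2, 1.14 for Tnnc1, 0.86 for Myog, 0.90 for Ncam2 and 0.84 for C1qtnf3. For Mymk, Casq2 and Tnnc1 the WT-TAF3 level after etoposide was already near or below that of differentiated KK-TAF3 cells. The differences below 0 were -0.88 for Setbp1, -0.74 for Ptgfr and -0.55 for Ccn5. With a variance for each group 22 genes passed. The direction of Nefl was opposite in the 2 treatments, but its change in differentiated cells did not pass by itself.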

How the results depend on the processing

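The count of 45 changed genes after etoposide moved by over 1.5 times under several alternatives. It was 104 at an unadjusted p, 81 in a fit of all 18 arrays, 26 with the 6 arrays compared alone, 23 among genes above the median signal, which left out 18 of the 45, and 6 when every transcript cluster was tested. The cause was not tested. Leaving out 1 array gave 13 to 55. With the array median as covariate 43 genes passed, 76.7% of them higher against 88.9%, and 35 were among the 45. Centring kept 31 of the 45 and shifted all changes by 0.04. The number of genes whose effect differed between treatments, 30, was 143 at an unadjusted p and 18 to 60 without 1 array. The 108 genes in differentiated cells were recounted only at an unadjusted p and in a fit of all 18 arrays, and stayed within 1.5 times. No array was left out for that count, so its stability is not comparable. Of 2633 recomputed values of single genes, 367 lost and 46 gained a call and 0 turned a called direction.

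Deviations of same-numbered arrays correlated at -0.29, -0.19 and 0.48 between the 2 genotypes compared, so the numbers were not taken to pair them. Between depleted and undepleted WT-TAF3 cells they correlated at 0.43, 0.33 and 0.56, and between KK-TAF3 and undepleted cells at 0.17, 0.10 and 0.59. With a replicate block 60 genes passed, 49 higher and 11 lower, and these included all 45. Replicates 1 and 2 of KK-TAF3 correlated best with replicates 2 and 1 of WT-TAF3. The block, added for the depletion values after seeing the data, changed no call among the genes whose depletion effect is given. Under the block the difference between treatments passed for 29 genes.

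With 3 arrays a group, changes near 1.4-fold depend on single arrays, and RMA values carry no detection calls, so a low signal cannot be separated from background.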
